A study of Danio rerio with 12 samples.

Results

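Zinc oxide (ZnO) nanoparticles are metal oxide particles that can release zinc ions into water, and the gill is the tissue of a fish most directly exposed to them. The ZnO exposure of adult zebrafish (Danio rerio) gill is described here against the untreated controls: 6 of the 12 arrays of the study, 3 of ZnO-exposed and 3 of control pools, chosen by the titles of the samples. Each pool held the gills of 10 adult fish, and RNA was taken after 96 h without feeding. The labels name no strain or sex. The ZnO pools came from water with 4.8 mg/L ZnO nanoparticles, the other exposed pools from water with 0.2 mg/L CuO or 17.5 mg/L NiO nanoparticles (3 pools each), and the design text derives each dose from the particle's own median lethal concentration. The doses of the 3 particles therefore differ in mg/L. The treatment label of the ZnO samples is spelled ZuONP, while their titles read ZnONP.

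Zinc inside a cell is held by metallothioneins, moved into the cytosol by the SLC39 (ZIP) transporters and out of it by the SLC30 (ZnT) transporters, and the zinc-sensing transcription factor MTF1 switches on metallothionein genes. Oxidative stress acts on another set of genes through the factor Nrf2, among them glutathione transferases and quinone reductase. Type I interferon acts through the STAT and IRF9 factors on antiviral effectors such as the Mx proteins, and gills, which hold many immune cells, express this pathway.

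Levels are log2 of the processed signal of a gene's brightest probe minus the 75th percentile of its array, so a level of 0 lies at that percentile. Differences are in log2 units with the standard error (SE) of the limma fit, a gene is said to have risen or fallen where limma's adjusted p was under 0.05, and each group has 3 pools. Of the 43 genes named below that rose or fell and had several tested probes, 29 had a probe that was not called in a fit of all 37144 probes, and 2 (asns and dnajc3b) had probes called in both directions. Between 75.5% and 88.4% of the spots of an array were well above background and 0 were saturated. Correlations across genes between arrays of a group ran from 0.822 to 0.938 under ZnO and from 0.912 to 0.924 in the controls. The array position on the slide is the same for all arrays of a group, so position and group cannot be told apart. The 3 arrays per group limit the precision, and since each array holds bulk gill tissue, fewer cells of a type and less RNA per cell cannot be told apart.

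The label of gill was set against 27 tested gill markers, whose median level was -2.14, -1.51 and -2.06 on the controls and -0.77, 0.20 and -1.09 on the ZnO arrays. The median level of all genes tested was -0.49, -0.30 and -0.38 on the controls and -0.63, -0.36 and -0.36 on the ZnO arrays. The gill markers thus lay below the typical gene on every control, on ZnO 1 and on ZnO 3, and above it on ZnO 2. Markers of other tissues were present at levels that differed between arrays. The 57 tested oocyte markers had median levels of 2.77, 2.84 and 3.13 on the controls and -5.20, -4.69 and -4.67 on the ZnO arrays. CuO arrays lay at -4.24, -3.74 and -2.96 and NiO arrays at 1.27, -3.61 and -4.03. Every control was thus high and every ZnO array low, with 46 of 57 oocyte markers fallen and 0 risen. Of all genes, 11.9% fell and 13.8% rose under ZnO. Under CuO 43 of the 57 fell (against 13.6% of all genes) and under NiO 40 (against 12.03%), with 0 rises each. The median level of the 39 pancreas and intestine markers was -3.97 on ZnO 1, 0.65 on ZnO 2 and 2.74 on ZnO 3, against 1.62 to 2.77 on the controls and 2.76 to 4.12 on the CuO and NiO arrays. Liver markers (36 genes) lay at -3.11, 1.83 and 3.63 on the ZnO arrays and at 2.16, 3.29 and 3.55 on the controls. Eye markers were low on 1 array of each group (control 3, CuO 3, ZnO 1 and NiO 2). The summed signal of the oocyte list, in units of the array's 75th percentile, ran from 36 to 39 on the ZnO arrays and from 562 to 713 on the controls. The part of these tissues in the results below was not tested, except where a value is given.

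**Figure D1:**
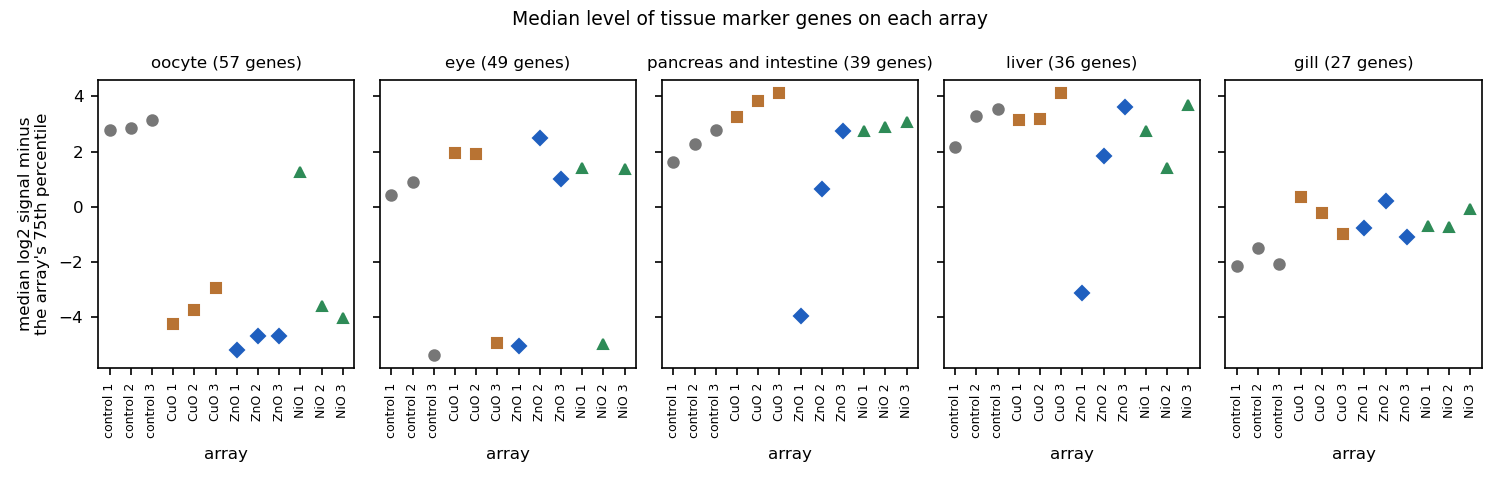
Median log2 level (signal minus the 75th percentile of the array) of 5 marker lists on each of the 12 arrays, 1 point per array, with colour and shape giving the group. Oocyte markers lie between 2.77 and 3.13 on the controls and between -5.20 and -4.67 on the ZnO arrays, and pancreas and liver markers are lowest on ZnO 1.

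Against the controls, ZnO gills had higher levels of antiviral, epithelial, matrix and immediate early genes and lower levels of cell cycle and oocyte genes. Of 12558 genes tested, 1737 rose (13.8%) and 1496 fell (11.9%), 25.7% in all, and the median over all genes was 0.32. Under CuO, with the same controls, 1443 rose (11.5%) and 1712 fell (13.6%), 25.1% in all, with a median of 0.42. Under NiO 1285 rose (10.23%) and 1511 fell (12.03%), 22.3% in all, with a median of 0.27. Since the 3 comparisons share their controls, the values are given side by side. Centred on ribosomal protein genes, whose own median was 0.30, 737 genes rose and 1556 fell under ZnO, and the all-gene median became 0.03. With the oocyte marker level as a covariate, which separates all ZnO arrays from all controls, the fit gave 0 calls by limma, with 293 genes at an unadjusted p under 0.05. Without control 3 the fit called 581 rises and 959 falls, and without control 1 it called 2049 genes in all.

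**Figure D2:**
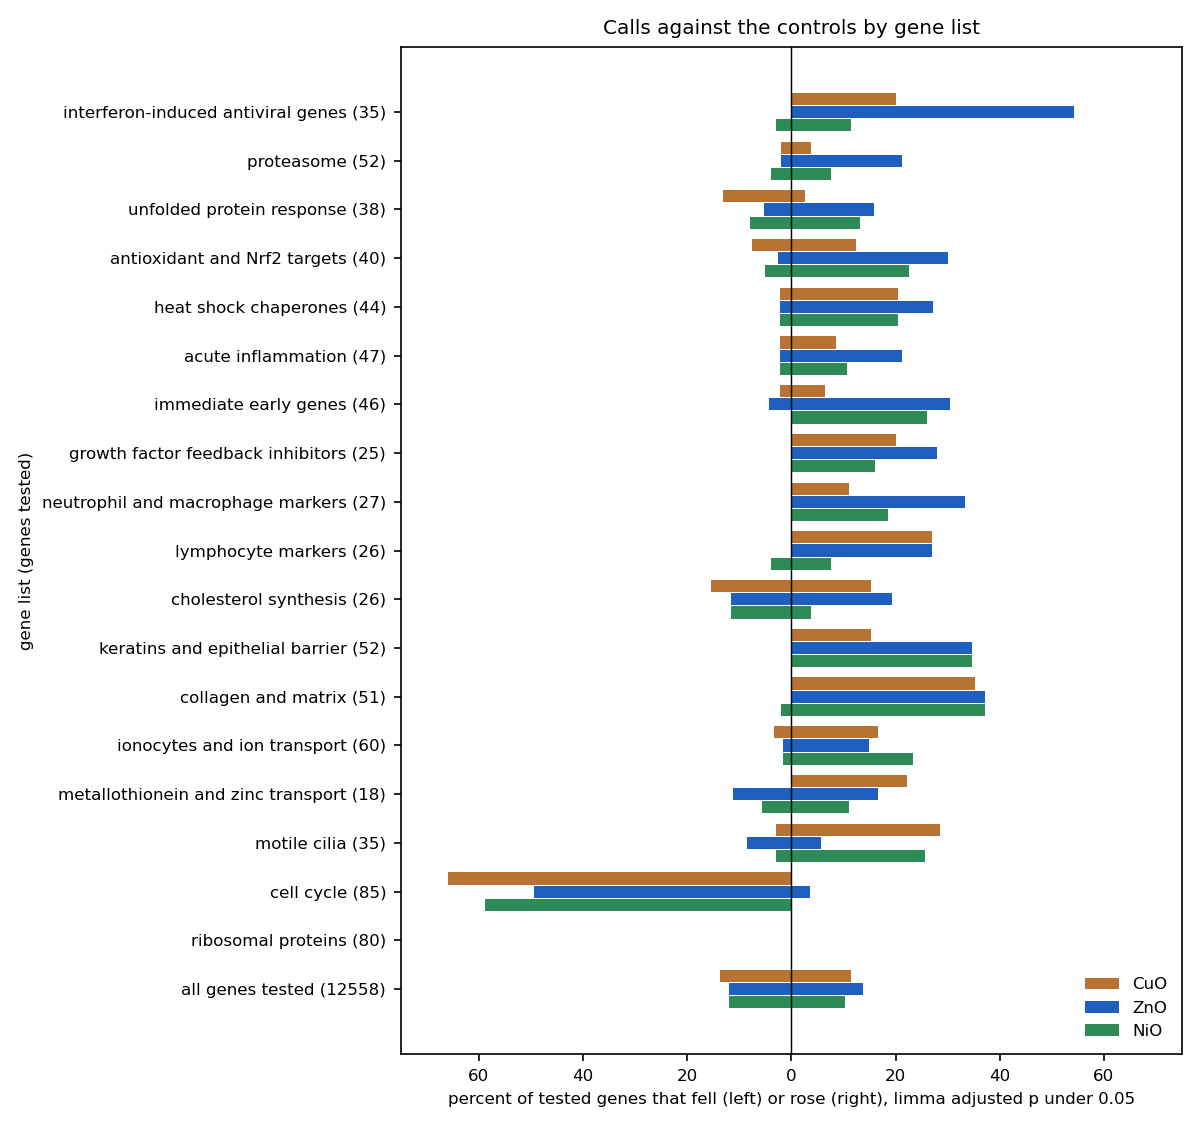
Percent of the tested genes of each list that fell (left) or rose (right) against the controls, limma adjusted p under 0.05, with 1 bar each for CuO, ZnO and NiO and the number of tested genes in brackets. Under ZnO the interferon list has 19 of 35 genes risen, against 13.8% of all genes.

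Set directly against the mean of CuO and NiO, no gene passed the threshold: 0 of 12558 genes (0%) were called by limma, while 954 (7.6%) had an unadjusted p under 0.05, 478 of them higher (3.81%) and 476 lower (3.79%). Against CuO alone and against NiO alone the calls also numbered 0, with 1248 (9.94%) and 619 (4.93%) at that unadjusted level. This comparison uses the controls only for the common estimate of the spread. Leaving out ZnO 3, the ZnO array richest in pancreas markers, gave 31 called genes against the mean of CuO and NiO, all 31 lower, of which 10 are in the pancreas and intestine list, 2 in the liver list and 0 in the interferon list. Leaving out ZnO 1 gave 2 calls and leaving out NiO 1 gave 1. Of the 2 without ZnO 1, 1 was the antiviral gene mxb, higher by 3.94 with limma's adjusted p = 0.0478.

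What set the ZnO arrays apart is therefore described by order rather than by calls. In 194 genes (1.54%) all 3 ZnO arrays lay above all 9 others, and in 52 (0.414%) they lay below. Of these, 131 (1.04%) had also risen against the controls and 42 (0.334%) had also fallen. The 131 became 65 without control 3, 77 without control 1, 300 without ZnO 3, 220 without ZnO 1 and 210 without NiO 2. The 42 became 203 without ZnO 3, 123 without ZnO 1, 79 without ZnO 2, 73 without NiO 3, 70 without CuO 1 and 66 without NiO 2. The 24 genes below are the 12 risen and 12 fallen genes of this kind with the smallest p against the mean of CuO and NiO. That ranking used the ZnO, CuO and NiO values, so their differences from CuO and NiO are a description, and none was called (adjusted p from 0.325 to 0.570 in both directions). The choice also required all 3 ZnO arrays to lie beyond the other 9, so that order is not a result for any of the 24.

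The 12 rises hold 3 genes of interferon-induced families (mxb, mxa and ifi44c2), a fish TRIM gene, a glutathione transferase, an ammonia transporter and a cytokine of B cells. rhcgl1 encodes an Rh glycoprotein that carries ammonia across the gill epithelium. Its levels were 0.73, 1.07 and 0.73 on the ZnO arrays, -1.50, -0.71 and -1.19 on the controls, -2.02, -0.94 and -1.71 under CuO and -0.35, -1.17 and -0.22 under NiO. rhcgl1 was 1.98 above the controls (SE 0.37, adjusted p = 0.00587). It was 1.91 above the mean of CuO and NiO, a difference that was not called and by whose p the gene was chosen.

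gstp1.1 encodes a pi-class glutathione transferase, a Nrf2 target in zebrafish. It lay at 2.39, 3.33 and 4.24 under ZnO, at -0.34, 0.14 and 0.71 on the controls, at 0.50, 0.83 and 0.19 under CuO and at 0.89, 0.22 and 2.03 under NiO. NiO 3 came closest to the lowest ZnO array. Against the controls gstp1.1 rose by 3.15 (SE 0.56, 8.88-fold, adjusted p = 0.00456), while it was 0.33 above them under CuO (adjusted p = 0.669) and 0.88 under NiO (adjusted p = 0.281).

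tnfsf13b encodes the B cell survival cytokine BAFF. Its levels were -1.76, -1.83 and -0.98 under ZnO and -4.70, -3.21 and -4.45 on the controls. The CuO and NiO arrays lay between -3.72 and -3.0, and the rise against the controls was 2.60 (SE 0.41, adjusted p = 0.00333).

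spry4, a Sprouty inhibitor that dampens growth factor receptor signals, rose under ZnO by 4.22 (SE 0.59, adjusted p = 0.00211). It also rose under CuO, by 1.93 (adjusted p = 0.0363), and was 1.81 above the controls under NiO (adjusted p = 0.0504), so it moved in the same direction with all 3 particles. ogfr1, named for the opioid growth factor receptor, was at 1.29, 1.32 and 0.93 under ZnO and between -1.15 and 0.63 on the other 9 arrays, and rose by 1.28 (adjusted p = 0.0233). The smallest difference among the 12 was that of ece1, the endothelin-converting enzyme, which rose by 0.91 (adjusted p = 0.0253); its 3 probes ran from -0.24 to 0.91 and only 1 was called. chrm4a, a muscarinic acetylcholine receptor, rose (adjusted p = 0.00211) and was at least 5.24-fold higher, with 2 of 3 controls well above background. dnal4a, a dynein light chain, was well above background on 3 of 3 ZnO arrays and 0 of 3 controls, and was at least 5.85-fold higher (adjusted p = 0.00650). For this bound the ZnO mean is set against the dimmest signal that still counts as well above background on each control array, or the signal of the probe where that is higher. ifi44c2, named for interferon-induced protein 44, rose by 2.17 (adjusted p = 0.0110), although its other probe lay at -0.26, and ftr53, a fish TRIM protein, rose by 1.70 (adjusted p = 0.0200). The calls of ogfr1 and ece1 were lost without control 1, control 3, ZnO 1 or ZnO 2, and that of ftr53 without control 3 or ZnO 3.

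**Figure D3:**
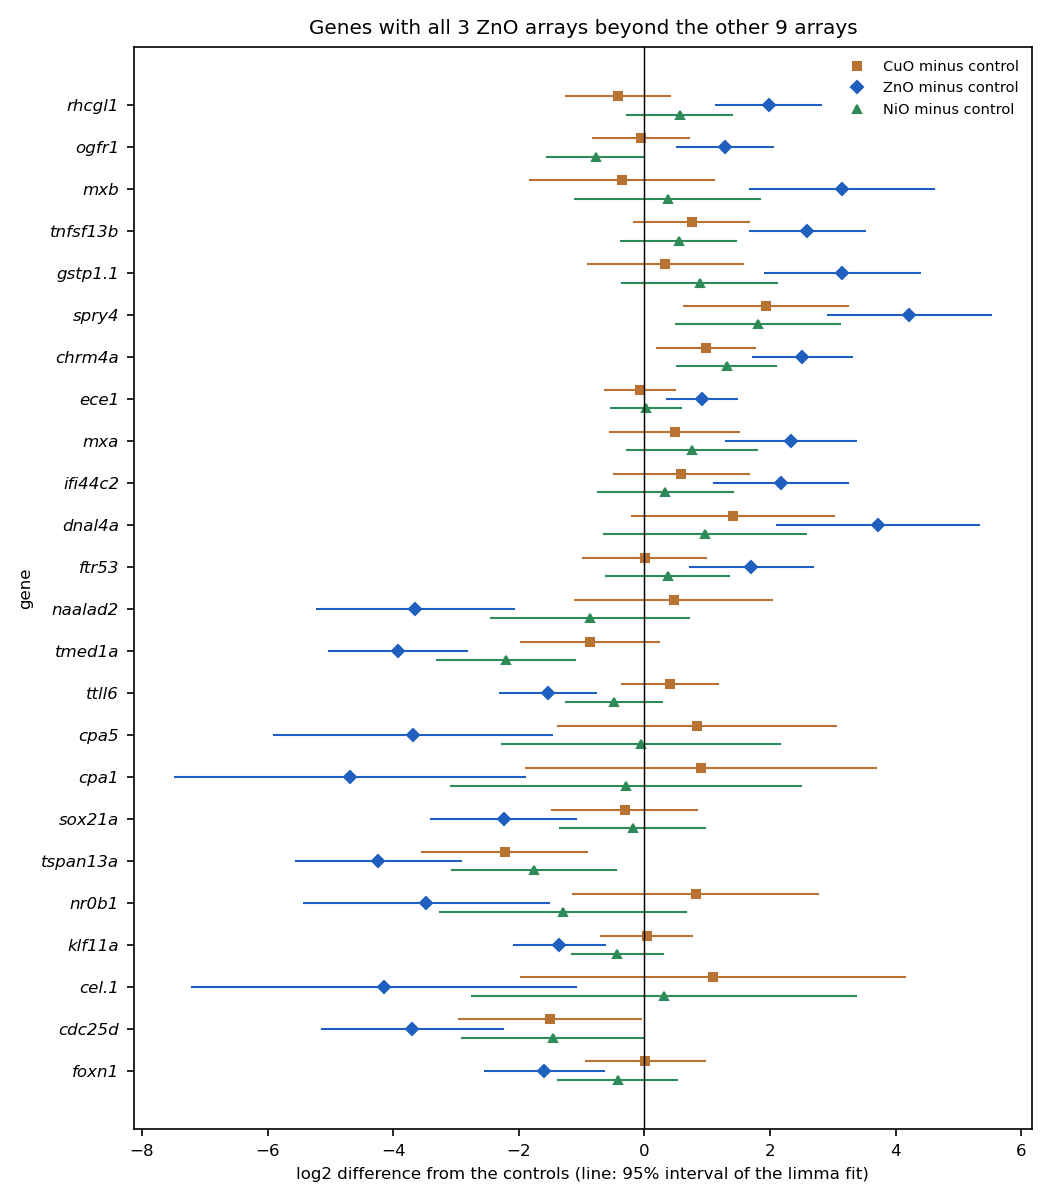
Log2 difference from the controls under CuO, ZnO and NiO for the 12 risen and 12 fallen genes with all 3 ZnO arrays beyond the other 9 arrays, with the 95% interval of the limma fit as a line. The points for ZnO lie farthest from 0, as the choice of the genes requires, and spry4, cdc25d and tspan13a, among others, lie on the same side of 0 under all 3 particles.

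The 12 falls hold 3 digestive enzymes of the exocrine pancreas (cpa1, cpa5 and cel.1) and several transcription factors. cpa1, a carboxypeptidase of pancreatic juice, was at -4.80, -1.35 and 1.66 under ZnO, at 2.66, 3.24 and 3.68 on the controls and between 2.16 and 4.89 on the CuO and NiO arrays. It fell by 4.69 (SE 1.26, adjusted p = 0.0225), and the 3 ZnO arrays spanned a wider range than the other 9 together. cel.1, the bile salt lipase, fell by 4.15 (adjusted p = 0.0498) and kept its call in 1 of 7 fits that each left out 1 array, without ZnO 3. cpa5 fell by 3.69 (adjusted p = 0.0233), and its call was lost without control 1, control 3, ZnO 1 or ZnO 2; that of cpa1 was lost without control 2, control 3 or ZnO 2. These 3 genes are themselves members of the pancreas and intestine list given above. All 39 tested genes of that list were lower than the mean of CuO and NiO, 32 of them at an unadjusted p under 0.05. Their median was -2.84, while 5715 of all 12558 genes were lower.

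Other falls were more even over the ZnO arrays. tmed1a, a p24 family cargo receptor of the secretory pathway, was at -2.69, -1.98 and -2.01 under ZnO, at 1.42, 1.54 and 2.14 on the controls, at 0.73, 0.39 and 1.39 under CuO and at 0.45, -1.56 and -0.42 under NiO. It fell by 3.93 (SE 0.49, adjusted p = 0.00189). NiO 2 came closest to the ZnO arrays, and tmed1a also fell under NiO, by 2.21 (adjusted p = 0.0135).

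naalad2, a membrane peptidase of the glutamate carboxypeptidase family, was at -5.10, -4.38 and -3.09 under ZnO and between -0.86 and -0.15 on the controls. It fell by 3.65 (SE 0.71, adjusted p = 0.00642), with 0.46 above the controls under CuO (adjusted p = 0.638) and -0.87 under NiO (adjusted p = 0.403). sox21a, a SoxB transcription factor, fell by 2.24 (adjusted p = 0.0127), and klf11a, a Krüppel-like factor, fell by 1.36 (adjusted p = 0.0145). ttll6, which adds glutamate chains to the tubulin of cilia, fell (adjusted p = 0.0114) and was at least 2.91-fold lower, and nr0b1, an orphan nuclear receptor of steroid-producing tissue, fell (adjusted p = 0.0184) and was at least 7.26-fold lower, each well above background on 2 of 3 ZnO arrays. For such bounds the arrays not well above background enter at the higher of that dimmest signal and their own, and the others at their own. foxn1, the transcription factor of thymic epithelium and a member of the gill list, fell (adjusted p = 0.0225) and was at least 2.32-fold lower, with signal well above background on 1 of 3 ZnO arrays. tspan13a, a tetraspanin, fell by 4.24 (adjusted p = 0.00211) and also fell under CuO, by 2.22 (adjusted p = 0.0215), but its 3 probes ran from -4.24 to -0.60 under ZnO and only 1 was called. cdc25d, a cell cycle phosphatase that is itself in the oocyte list, fell (adjusted p = 0.00454) and was at least 12.9-fold lower, with signal well above background on 1 of 3 ZnO arrays, while its other probe was at -1.0 and not called. Without control 3, sox21a, klf11a, nr0b1 and foxn1 were no longer called. Calls were also lost without control 1 for klf11a, without ZnO 2 for nr0b1 and foxn1, and without ZnO 3 for foxn1.

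Interferon-induced antiviral genes were the list with the highest share of rises under ZnO. Of 37 members on the array 35 were tested, of which 19 rose (54.3%, against 13.8% of all genes) and 0 fell, with a median of 1.33 beside 0.32 for all genes. Under CuO 7 rose (20%, against 11.5% of all genes) and 0 fell, with a median of 0.59 beside 0.42 for all genes. Under NiO 4 rose (11.4%, against 10.23%) and 1 fell, with a median of 0.76 beside 0.27. The median level of the list was 0.27, 0.03 and 0.30 on the ZnO arrays, -1.70, -0.98 and -0.55 on the controls, -0.21, -1.04 and -0.27 under CuO and -0.98, -0.82 and -0.75 under NiO. Each ZnO array was above each of the other 9 by this measure. Against the mean of CuO and NiO, 34 of 35 members were higher (6843 of 12558 over all genes), 13 of them at an unadjusted p under 0.05, and the median difference was 0.67 beside 0.05 for all genes. Since limma called none of these, the difference between the particles did not pass the test for any single member.

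The Mx proteins are interferon-induced GTPases that block virus replication. mxb stood at -1.72, -0.03 and 1.41 under ZnO, at -3.89, -2.90 and -2.97 on the controls, at -3.55, -4.08 and -3.21 under CuO and at -2.88, -3.18 and -2.60 under NiO. The other 9 arrays lay close together and the 3 ZnO arrays spread widely above them, and mxb was 3.14 above the controls (SE 0.66, 8.83-fold, adjusted p = 0.00866). mxa stood at -0.31, 0.61 and -0.0028 under ZnO and between -2.95 and -0.81 on the other 9 arrays.

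The rise of mxa was 2.33 (SE 0.46, adjusted p = 0.00709), and its 2 probes were both called higher. mxe, the other Mx gene named, stood at -1.38, -0.49 and -0.05 under ZnO, at -3.84, -2.84 and -2.65 on the controls and at -2.26, -1.16 and -1.59 under NiO. It rose by 2.47 (SE 0.48, adjusted p = 0.00631), and ZnO 1 overlapped with the NiO arrays.

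pkz encodes a fish kinase with Z-nucleic acid binding domains that stops translation in infected cells. It was at 1.44, 2.88 and 2.34 under ZnO, at -1.33, 0.88 and -0.82 on the controls, at 0.28, 0.67 and 0.21 under CuO and at 1.42, 0.96 and 1.03 under NiO. ZnO 1 and NiO 1 were nearly equal. The rise against the controls was 2.64 (SE 0.55, adjusted p = 0.00813).

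isg15 encodes a ubiquitin-like protein that is attached to other proteins after interferon. Its levels were 3.34, 3.34 and 3.46 under ZnO, with 0.87, 0.35 and 1.91 on the controls, 0.83, 1.11 and 2.58 under CuO and 0.46, 2.98 and 1.63 under NiO. The ZnO arrays were tight while the other groups spread, and the rise was 2.34 (SE 0.67, adjusted p = 0.0288). Fits without control 1, control 2 or any 1 of the ZnO arrays did not call it.

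Factors of the interferon signal were chosen for naming after their values were seen. irf9, the DNA-binding partner of the STAT factors, rose by 1.43 (SE 0.28, adjusted p = 0.00676), from levels of -0.21 to 0.73 on the controls to 1.58 to 1.79 on the ZnO arrays. stat1b, one of those STAT factors, rose by 1.52 (adjusted p = 0.0210) and was not called in the fits without control 1 or ZnO 2. irf8, a factor of macrophage development, rose by 1.65 (adjusted p = 0.0447) and kept its call in 1 of 7 fits that each left out 1 array, the one without control 2. In 7 of the 35 members (mxb, mxa, pkz, isg15, irf8, irf9 and stat1b), or 20% against 1.54% of all genes, all 3 ZnO arrays lay above all 9 others. dhx58, a sensor of viral RNA, was 3.11 above the controls but its control arrays ran from -5.32 to -3.18, and it was not called (SE 1.19, adjusted p = 0.0790). Its other probe was called higher in the fit of all probes (2.22, limma's adjusted p = 0.0386).

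The interferon genes themselves are the ligands of the pathway, and 1 of the 3 described here passed the test. ifnphi1 was at -0.03, -0.43 and -0.45 under ZnO and at -0.03, -1.01 and -0.18 on the controls, a difference of 0.11 (SE 0.35, adjusted p = 0.844). The groups overlapped fully. ifnphi2 rose by 1.51 (SE 0.47, adjusted p = 0.0402), except in fits without any 1 of the controls, ZnO 2 or ZnO 3, and ifnphi3 was 1.15 above the controls (SE 0.43, adjusted p = 0.0707). All 3 were also named after their values were seen.

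The count of 19 risen members was 9 without control 1, 10 without ZnO 2, and 12 without control 3 or without ZnO 3. It was 11 with arrays centred on ribosomal protein genes, 8 in a fit of ZnO and control arrays alone, and 0 with the oocyte level as a covariate. In the covariate fit 33 of 35 members (94.3%, against 56.7% of all genes) lay above the controls, with a median of 1.01 beside 0.17. Since that covariate separates all ZnO arrays from all controls, these values cannot tell the exposure from the oocyte level. Against the mean of CuO and NiO, 28 to 34 of the members tested were higher whichever array was left out, with a median from 0.59 to 0.76, and the 13 at an unadjusted p under 0.05 became 7 without ZnO 2 or without ZnO 3. The neutrophil and macrophage list had median levels of 2.04, 2.43 and 2.47 on the ZnO arrays and of -0.04, 2.29 and 1.21 on the controls, so control 1 was low in both lists. The part of immune cell numbers in the interferon result was not tested.

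**Figure D4:**
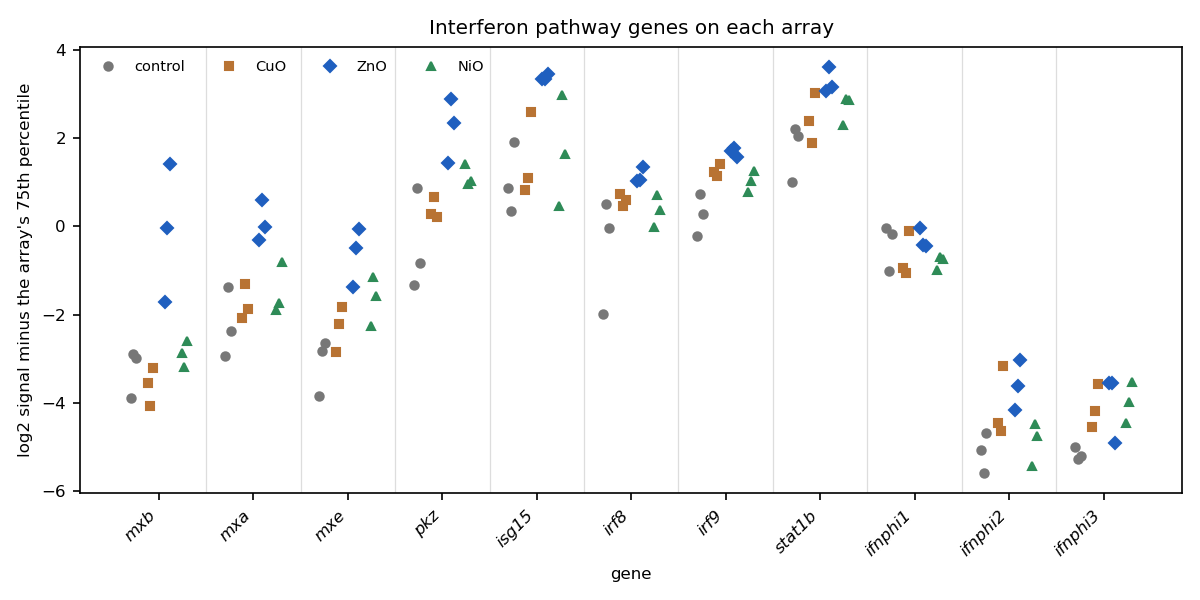
Log2 level (signal minus the 75th percentile of the array) of 11 interferon pathway genes on each of the 12 arrays, 1 point per array, with colour and shape giving the group. For mxb, mxa, pkz, isg15, irf8, irf9 and stat1b all 3 ZnO points lie above all other points, and for ifnphi1 the groups overlap.

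The genes of zinc handling moved little as a list. Of 19 members on the array 18 were tested, 3 rose (16.7%, against 13.8% of all genes) and 2 fell (against 11.9%), and 13 were not called. The median was 0.12, below the 0.32 of all genes. Under CuO 4 rose and 0 fell, and under NiO 2 rose and 1 fell. In 0 of the 18 did all 3 ZnO arrays lie beyond the other 9, and the 3 rises became 1 without ZnO 2.

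mt2 encodes metallothionein 2, the small cysteine-rich protein that binds zinc and copper. Its levels were 3.11, 3.88 and 3.97 under ZnO, 4.33, 4.76 and 4.56 on the controls, 4.82, 5.27 and 5.13 under CuO and 3.98, 4.03 and 3.87 under NiO. The ZnO arrays were below all controls and all CuO arrays and overlapped with the NiO arrays. mt2 fell by 0.90 (SE 0.29, adjusted p = 0.0430), and this call stood in 1 of 7 fits that each left out 1 array, the one without ZnO 3.

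The 3 probes of mt2 ran from -1.58 to 0.23 against the controls, and 1 was called lower. The other metallothionein gene, mtbl, named after its values were seen, was at 1.27, 2.53 and 2.19 under ZnO and at 0.83, 1.56 and 1.83 on the controls. These ranges overlapped, with a difference of 0.59 (SE 0.57, 95% interval -0.68 to 1.86, adjusted p = 0.474). mtf1, the metal sensor that drives metallothionein genes, rose by 1.05 (SE 0.29, adjusted p = 0.0241) under ZnO, by 1.26 (adjusted p = 0.0106) under CuO and by 1.08 (adjusted p = 0.0240) under NiO. Its ZnO call was lost without control 2, control 3, ZnO 1 or ZnO 2.

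Among the importers, slc39a1 (ZIP1) was at 0.92, 2.14 and 1.26 under ZnO and at -1.40, -0.24 and 0.39 on the controls, with CuO between 0.30 and 0.94 and NiO between -0.29 and -0.03. The ZnO arrays lay above the controls and NiO arrays but met the CuO arrays. slc39a1 rose by 1.86 (SE 0.46, adjusted p = 0.0172), except in the fit without ZnO 2, and its 4 probes ran from -0.21 to 1.95, 2 of them called. slc39a3 (ZIP3) rose by 1.75 under ZnO (adjusted p = 0.00877), by 1.21 under CuO (adjusted p = 0.0377) and by 1.95 under NiO (adjusted p = 0.00800). slc39a10 (ZIP10), an importer repressed by zinc through MTF1 in zebrafish gill, was lower than the controls and not called (adjusted p = 0.175), with signal well above background on 2 of 3 ZnO arrays.

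Among the exporters, slc30a1a (ZnT1), a classical MTF1 target, was 1.29 above the controls (SE 0.46, adjusted p = 0.0615), while it rose by 1.66 under CuO (adjusted p = 0.0249). Its difference from the mean of CuO and NiO was -0.03 (95% interval -0.91 to 0.85). Its paralog slc30a1b was at -7.19, -8.63 and -5.14 under ZnO and at -1.11, -2.61 and -1.85 on the controls, with -6.02, -4.01 and -3.36 under CuO and -3.2, -6.06 and -5.40 under NiO. All 9 exposed arrays were below all controls, and slc30a1b fell under ZnO (adjusted p = 0.00729), being at least 22.1-fold lower. Signal was well above background on 1 of 3 ZnO arrays, so the size is a bound. The controls were high in oocyte markers, as was NiO 1 among the exposed arrays. The part of oocytes in the fall of slc30a1b was not tested.

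**Figure D5:**
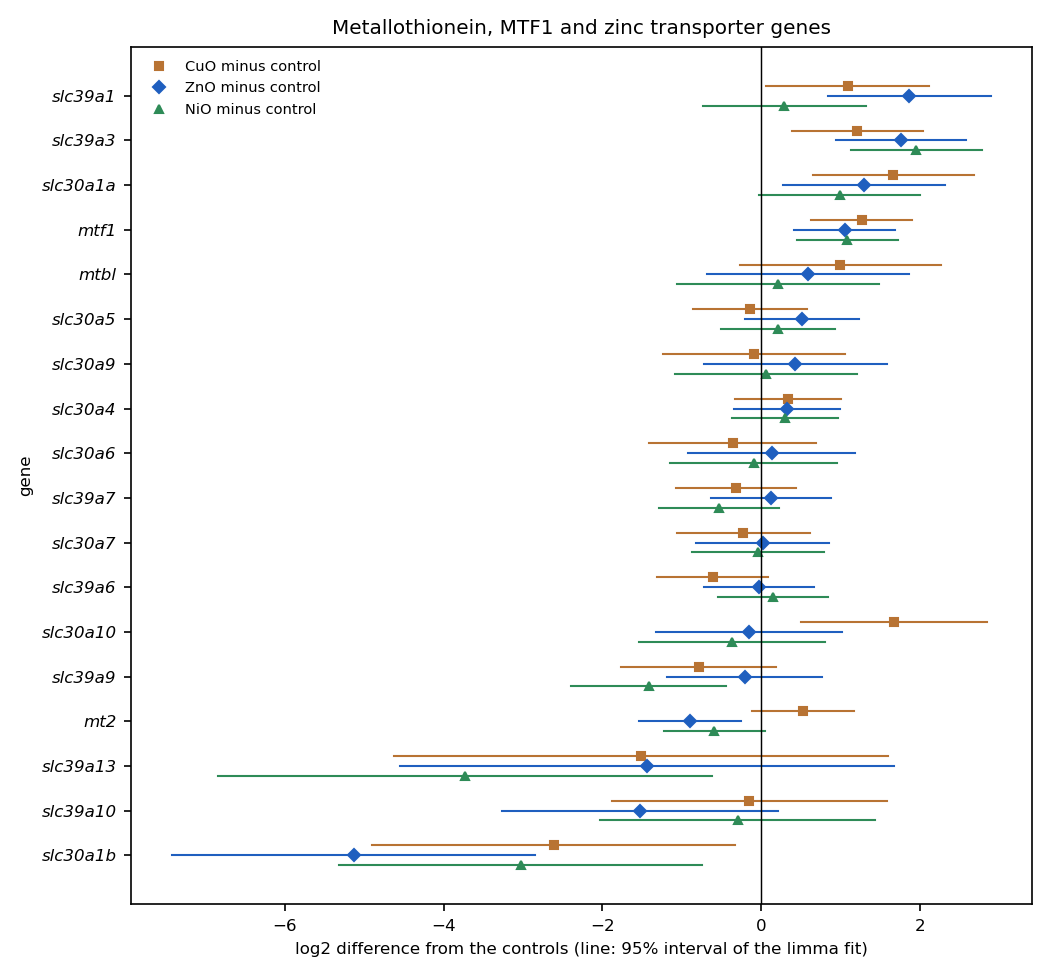
Log2 difference from the controls under CuO, ZnO and NiO for the 18 tested metallothionein, MTF1 and zinc transporter genes, in order of the ZnO value, with the 95% interval of the limma fit as a line. slc30a1b lies lowest under ZnO, where its signal was well above background on 1 of 3 arrays, and the ZnO intervals of most genes overlap those of CuO and NiO.

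In the antioxidant and Nrf2 list, 12 of 40 tested genes rose under ZnO (30% against 13.8% of all genes) and 1 fell, with a median of 0.49. Under CuO 5 rose and 3 fell, and under NiO 9 rose and 2 fell. nqo1, the quinone reductase, was at 2.99, 3.55 and 2.46 under ZnO, at 0.72, 0.63 and 0.18 on the controls, at 1.98, 1.66 and 2.48 under CuO and at 1.78, 2.13 and 2.61 under NiO. It was above the controls on all exposed arrays and rose by 2.49 under ZnO (SE 0.36, adjusted p = 0.00237), by 1.53 under CuO (adjusted p = 0.0135) and by 1.66 under NiO (adjusted p = 0.0127). Besides gstp1.1, described above, all 3 ZnO arrays exceeded the other 9 for gstp1.2, gsr and mgst1.2, so 4 of 40 members (10%, against 1.54% of all genes) did so.

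gsr, glutathione reductase, rose by 1.26 (adjusted p = 0.00744) and the microsomal glutathione transferase mgst1.2 by 1.48 (adjusted p = 0.00342), both named after their values were seen, as is gstp1.2, which was not called (0.63 above the controls, adjusted p = 0.0977). mgst1.1 rose by 1.65 (adjusted p = 0.0374), a call kept in 2 of 7 fits that each left out 1 array, those without ZnO 2 or NiO 1. hmox1a, the heme oxygenase that Nrf2 induces, was at 0.81, -0.99 and 1.33 under ZnO and between -1.43 and -0.55 on the controls, and was not called (1.24, SE 0.78, adjusted p = 0.266). gclm, a subunit of the enzyme that starts glutathione synthesis, lay at -0.22 (adjusted p = 0.708), and txnrd3, a thioredoxin reductase, at 0.45 (adjusted p = 0.392).

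prdx1, a peroxiredoxin named after its values were seen, did not differ detectably from the controls under ZnO (-0.08, SE 0.37, adjusted p = 0.899) but fell under CuO, by 1.39 (adjusted p = 0.0219), and under NiO, by 1.38 (adjusted p = 0.0261). Its difference from the mean of CuO and NiO was 1.31 (95% interval 0.59 to 2.03, adjusted p = 0.570). gpx8, an endoplasmic reticulum peroxidase, was the member that fell, by 5.18 under ZnO (adjusted p = 0.00751). Under CuO gpx8 fell by 5.65 (adjusted p = 0.00475) and under NiO it fell by 4.26 (adjusted p = 0.0188). The 12 rises became 5 without control 1 or without control 3, and 6 without ZnO 2.

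Subunits of the proteasome, the complex that degrades ubiquitin-tagged proteins, mostly lay slightly higher under ZnO than under the other particles. The ZnO and NiO arrays overlapped, however. The median level of the list was 3.37, 2.76 and 2.98 on the ZnO arrays and 2.60, 3.09 and 2.79 on the NiO arrays. ZnO 2 thus lay below NiO 2 and NiO 3, and ZnO 3 lay below NiO 2. The median level was 2.47, 2.64 and 2.38 under CuO and at most 2.63 on the controls. Of 52 tested genes 11 rose (21.2%, against 13.8% of all genes) and 1 fell, psmd10, with a median of 0.57. Under CuO 2 rose and 1 fell with a median of 0.08, and under NiO 4 rose and 2 fell with a median of 0.28. Against NiO alone 50 of 52 were higher under ZnO, with a median of 0.22 and 1 at an unadjusted p under 0.05. Against CuO alone 51 were higher, with a median of 0.49 and 10 at that level. Against the mean of CuO and NiO, 51 of 52 were higher, with a median of 0.37 beside 0.05 for all genes and 8 at an unadjusted p under 0.05. Whichever array was left out, 44 to 52 members were higher, and with the oocyte level as a covariate 49 were. The 8 at an unadjusted p under 0.05 became 1 with that covariate or without ZnO 1, 2 with ribosomal centring, and 3 with quantile normalization, with the percentile over detected probes or without NiO 1. They became 4 with the replicate block, with array weights, with the mean of a gene's probes, without CuO 1 or without CuO 3, and 0 without the 4 arrays low in eye markers.

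psmd2, a base subunit of the regulatory particle, was at 2.02, 2.11 and 1.61 under ZnO and at 0.41, 0.59 and -0.19 on the controls, and rose by 1.64 (SE 0.29, adjusted p = 0.00456). psma6l, of the core particle, was at 3.18, 2.96 and 3.21 under ZnO and between 1.07 and 2.80 on the other arrays, and rose by 1.49 (adjusted p = 0.0122). psme4b, an activator, rose by 1.56 (adjusted p = 0.0106) and psmd4b, a ubiquitin receptor, by 1.4 (adjusted p = 0.0198). The fall of psmd10 was 1.36 under ZnO (adjusted p = 0.0280), 1.83 under CuO (adjusted p = 0.00806) and 1.70 under NiO (adjusted p = 0.0142); psmd10 was named after its values were seen. The 11 rises became 3 without control 1 or without control 3, 6 without ZnO 1 or without ZnO 2, and 1 without the 4 arrays low in eye markers. The call of psmd4b was lost without control 1, control 3 or ZnO 1.

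In the unfolded protein response list 6 of 38 genes rose (15.8%, against 13.8% of all genes) and 2 fell. Under CuO 1 rose and 5 fell, and under NiO 5 rose and 3 fell. Of the 38, 33 were higher than the mean of CuO and NiO (86.8%, against 54.5% of all genes), with a median of 0.37. Against CuO alone 34 were higher, with a median of 0.56 and 13 at an unadjusted p under 0.05. Against NiO alone 27 were higher, with a median of 0.24 and 0 at that level. atf3, a stress-induced transcription factor, was at 0.91, 1.88 and 0.97 under ZnO, at -2.44, -0.45 and -1.51 on the controls, between -0.94 and -0.11 under CuO and between -0.06 and 0.34 under NiO. All ZnO arrays exceeded all others, and the rise was 2.72 (SE 0.49, adjusted p = 0.00500). atf4b, which drives amino acid synthesis genes under stress, rose by 1.63 (adjusted p = 0.0152).

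asns, the asparagine synthetase that ATF4 induces, rose by 2.32 (adjusted p = 0.00337) by its brightest probe, while its other probe was called lower, with a difference of -3.42, so its direction depends on the probe. dnajc3b, a chaperone, rose by 1.95 (adjusted p = 0.0182), with 2 probes called higher and 1 lower. ddit3, the death-linked factor CHOP, had no value on array 1 of any group and was not called (1.02, SE 0.67, adjusted p = 0.313). The 6 rises became 3 without control 1 and 10 without control 2, and the call of dnajc3b was lost without control 1, control 3 or ZnO 2.

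Among heat shock chaperones 12 of 44 rose under ZnO (27.3%, against 13.8% of all genes) and 1 fell. Under CuO and under NiO 9 rose (20.5%, against 11.5% and 10.23% of all genes) and 1 fell. hsp70l, the inducible HSP70 gene, was at 0.63, 1.14 and 1.16 under ZnO, at 0.08, 0.02 and -0.30 on the controls, at 1.79, 1.68 and 1.01 under CuO and at 2.44, 2.12 and 2.31 under NiO. The ZnO arrays lay above the controls and below the NiO arrays, and the difference from the mean of CuO and NiO was -0.92 (95% interval -1.47 to -0.37, adjusted p = 0.570). The count of 12 became 3 without control 3 and 6 without ZnO 2.

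Of 46 immediate early genes, which respond first to growth and stress signals, 14 rose under ZnO (30.4%, against 13.8% of all genes) and 2 fell, while 30 were not called. Under CuO 3 rose (6.52%, against 11.5% of all genes) and under NiO 12 (26.1%, against 10.23%). Of 25 feedback inhibitors of growth factor signals 7 rose under ZnO (28%, against 13.8% of all genes) and 0 fell. Under CuO 5 rose (20%, against 11.5%) and under NiO 4 (16%, against 10.23%), with 0 falls each. egr3, a zinc finger factor induced within minutes to hours of stimulation, was at 0.44, 1.52 and 0.51 under ZnO and at -2.74, -0.92 and -2.88 on the controls. It rose by 3.01 (SE 0.62, adjusted p = 0.00791) and gadd45aa, a growth arrest gene, by 2.31 (adjusted p = 0.0111). Besides spry4, the Ras-MAPK inhibitor spred1 rose by 1.69 (adjusted p = 0.0152) and the BMP signal inhibitor smad6a by 1.67 (adjusted p = 0.00893). The 14 early genes became 6 without control 1, 4 without control 3, 6 without ZnO 2 and 8 without ZnO 3, and the 7 inhibitors 4 without control 1 or ZnO 2, 3 without control 3 and 11 without control 2. The call of spred1 was lost without control 1, control 3 or ZnO 2.

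In the acute inflammation list 10 of 47 genes rose under ZnO (21.3%, against 13.8% of all genes) and 1 fell. Under CuO 4 rose (8.51%, against 11.5%) and under NiO 5 (10.6%, against 10.23%), with 1 fall each. ptgs2b, a cyclooxygenase of prostaglandin synthesis, was at 0.68, 1.91 and 2.75 under ZnO and at -2.55, 0.26 and -3.0 on the controls, with control 2 close to ZnO 1. It rose by 3.54 (SE 0.88, adjusted p = 0.0166), its paralog ptgs2a by 2.35 (adjusted p = 0.0249) and saa, the acute phase serum amyloid A, by 2.79 (adjusted p = 0.0157). ptges, the prostaglandin E synthase downstream of the cyclooxygenases, fell by 3.61 (adjusted p = 0.0434), a call kept in 1 of 7 fits that each left out 1 array, the one without ZnO 3. The count of 10 became 3 without control 1 or without control 3, 5 without ZnO 2, 6 without ZnO 3 and 17 without control 2. The calls of ptgs2b and ptgs2a were lost without control 1, control 3, ZnO 2 or ZnO 3, and that of saa without control 1 or control 3.

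Of 27 neutrophil and macrophage markers 9 rose under ZnO (33.3%, against 13.8% of all genes) and 0 fell, with 3 rises under CuO (11.11%, against 11.5%) and 5 under NiO (18.5%, against 10.23%). Of 26 lymphocyte markers 7 rose (26.9%) and 0 fell, with 7 and 0 under CuO and 2 and 1 under NiO. mpeg1.2, a perforin-like protein of macrophages, was at 1.42, -0.31 and 1.54 under ZnO and between -1.71 and -0.99 on the controls, and rose by 2.22 (SE 0.55, adjusted p = 0.0171). cmklr1, the chemerin receptor, rose by 2.2 (adjusted p = 0.0222), with the tetraspanin cd37 of B cells rising by 1.77 (adjusted p = 0.0123) and the chemokine receptor ccr9a by 1.74 (adjusted p = 0.0174). illr1, an immune-related lectin-like receptor, was at -1.02, -1.02 and 0.22 under ZnO, at -4.39, -9.39 and -7.18 on the controls, between -2.04 and -1.35 under CuO and between -4.03 and -2.40 under NiO, and rose (adjusted p = 0.00340). It was well above background on 2 of 3 controls and at least 49.5-fold higher under ZnO. The 9 rises became 2 without control 1, 1 without control 3, 3 without ZnO 2 and 2 without ZnO 3. Calls were lost without control 3 or ZnO 3 for mpeg1.2, without control 1, control 3, ZnO 2 or ZnO 3 for cmklr1 and without control 1, control 3 or ZnO 2 for ccr9a.

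In cholesterol synthesis the median of 26 genes was 0.84 under ZnO, -0.12 under CuO and -0.09 under NiO, with 5 rises (19.2%, against 13.8% of all genes) and 3 falls under ZnO. Under CuO 4 rose (15.4%, against 11.5%) and 4 fell, and under NiO 1 rose (3.85%, against 10.23%) and 3 fell. The median level of the list was 0.37, 1.58 and 0.24 on the ZnO arrays and -0.87, 0.27 and -0.01 on the controls. CuO arrays lay at -0.72, 0.57 and 0.32 and NiO arrays at 0.57, -0.97 and -0.66, so the ranges overlapped. Against the mean of CuO and NiO 6 members were higher at an unadjusted p under 0.05, and 0 without ZnO 2. cyp51, the lanosterol demethylase, was at 1.70, 3.2 and 1.16 under ZnO, at -1.37, 0.38 and -1.26 on the controls, at -1.01, 1.00 and 0.85 under CuO and at 0.94, -0.36 and -0.16 under NiO. It exceeded all other arrays in all 3 ZnO pools and rose by 2.77 (SE 0.73, adjusted p = 0.0215), while it was 1.03 above the controls under CuO (adjusted p = 0.309) and 0.89 under NiO (adjusted p = 0.409). hmgcra, the rate-limiting HMG-CoA reductase, named after its values were seen, was 2.56 above the controls (SE 0.96, adjusted p = 0.0725), and 1 of its 3 probes was called higher in the fit of all probes (3.34, limma's adjusted p = 0.0333). The 5 rises became 2 without control 1, 1 without control 3 or without ZnO 2, and 3 without ZnO 1, and 0 without the 4 arrays low in eye markers. The call of cyp51 was lost without control 1, control 3 or ZnO 2.

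Keratin and matrix genes rose more often than all genes under ZnO, and ion transport genes about as often. Of 52 keratin and barrier genes 18 rose (34.6%, against 13.8% of all genes) and 0 fell (8 and 0 under CuO, 18 and 0 under NiO), and of 51 collagen and matrix genes 19 rose (37.3%) and 0 fell (18 and 0 under CuO, 19 and 1 under NiO). Of 60 ionocyte and ion transport genes 9 rose (15%) and 1 fell (10 and 2 under CuO, 14 and 1 under NiO). atp1a1a.5, a sodium pump alpha subunit of ionocytes, was at -0.21, 0.39 and -1.17 under ZnO and at -5.18, -3.64 and -1.72 on the controls, and rose by 3.18 (SE 0.94, adjusted p = 0.0328). Its difference from the mean of CuO and NiO ran from -0.45 to 0.34 over the fits that each left out 1 array. stc1, the hormone that slows calcium uptake in fish, rose by 1.91 under ZnO (adjusted p = 0.00591), by 2.28 under CuO (adjusted p = 0.00297) and by 2.12 under NiO (adjusted p = 0.00638). The fallen member, ca15b, a carbonic anhydrase, is also in the oocyte list. The 18 keratin genes became 10 without control 1, 6 without control 3 and 8 without ZnO 2, the 19 matrix genes 9 without control 3, and the 9 ion transport genes 5 without control 1. The call of atp1a1a.5 was lost without control 1, control 2, ZnO 1 or ZnO 2.

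Motile cilia genes mostly lay lower under ZnO than under the other particles, though ZnO 3 overlapped with their arrays. The median level of the list was -3.18, -2.47 and -1.40 on the ZnO arrays and -2.88, -2.17 and -2.30 on the controls. It was -1.89, -0.55 and -0.93 under CuO and -1.46, -1.51 and -0.54 under NiO. Of 35 tested, 2 rose under ZnO (5.71%, against 13.8% of all genes) and 3 fell (8.57%, against 11.9%), with a median of 0.28. Under CuO 10 rose (28.6%, against 11.5%) and 1 fell, with a median of 0.75. Under NiO 9 rose (25.7%, against 10.23%) and 1 fell, with a median of 0.92. The ZnO median of 0.28 lay beside 0.32 for all genes. It was 0.37 with array weights and 0.36 without ZnO 1, but -0.02 with ribosomal centring, -0.17 without ZnO 3 and -0.19 with the oocyte level as a covariate. Against the mean of CuO and NiO 32 of 35 were lower (5715 of 12558 over all genes), with a median of -1.14, and 0 were called. Of the 32, 12 were at an unadjusted p under 0.05 (476 of 12558 over all genes). The 12 became 3 without ZnO 1, 7 without ZnO 2, 8 without CuO 2 and 17 without ZnO 3, with a median of -0.90 or below in each fit that left out 1 array. They became 4 with array weights (median -0.75), 5 with quantile normalization and 3 without the 4 arrays low in eye markers (median -0.81). The median was -0.61 with normexp and -0.59 over the 27 members well above background on all 12 arrays. The members named next were chosen after their values were seen. cfap45, a protein inside ciliary microtubules, was at -1.95, -1.50 and -1.12 under ZnO, -0.94, -1.71 and -1.80 on the controls, -0.47, -0.12 and 0.14 under CuO and -0.91, -0.62 and -0.51 under NiO. It matched the controls (-0.04, 95% interval -0.77 to 0.70) and differed from the mean of CuO and NiO by -1.11 (SE 0.29, adjusted p = 0.570).

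odad3, an outer dynein arm docking protein, was at -2.40, -1.90 and -0.92 under ZnO and at -3.23, -2.22 and -2.90 on the controls, and rose under CuO by 2.14 (adjusted p = 0.00732) and under NiO by 2.54 (adjusted p = 0.00651). Under ZnO it was 1.04 above the controls and not called (adjusted p = 0.107). cfap52 was at -4.54, -3.87 and -0.79 under ZnO and between -1.07 and -0.38 on the controls. That is, ZnO 3 resembled the other groups, and the difference from the controls was -2.39 (SE 0.89, adjusted p = 0.0714). zmynd10, which helps assemble dynein arms, fell and was at least 2.22-fold lower (adjusted p = 0.00758), with signal well above background on 0 of 3 ZnO arrays. Testis markers, which share axoneme genes with cilia, had a median of -1.67 against the mean of CuO and NiO over 13 genes, and pancreas, liver and testis markers were highest on ZnO 3 among the ZnO arrays. The part of other tissue in the cilia result was not tested.

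Of 85 cell cycle genes 42 fell under ZnO (49.4%, against 11.9% of all genes), 3 rose and 40 were not called, beside the lower oocyte transcripts. Under CuO 56 fell (65.9%, against 13.6%) and under NiO 50 (58.8%, against 12.03%). ccne1, the cyclin E that opens S phase, fell by 4.81 under ZnO (adjusted p = 0.00206), by 4.56 under CuO (adjusted p = 0.00198) and by 3.48 under NiO (adjusted p = 0.00756). In the aryl hydrocarbon receptor list 4 of 14 rose under ZnO (28.6%, against 13.8% of all genes) and 1 fell. The same number, 4, rose under CuO and under NiO (28.6%, against 11.5% and 10.23% of all genes), with 0 falls each. Under ZnO cyp1a, the receptor's classical target, was 1.14 above the controls (SE 0.44, adjusted p = 0.0842), and cyp1b1 rose by 2.19 (adjusted p = 0.0339), except in fits without control 1, control 3, ZnO 1 or ZnO 2. Of 80 ribosomal protein genes limma called 0 under ZnO (0 at an unadjusted p under 0.05), with a median of 0.30, and of 75 oxidative phosphorylation genes 5 rose (6.67%) and 0 fell, with a median of 0.34.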

How the data were processed

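Gill RNA of 12 pools was hybridised to zebrafish Agilent arrays, 1 per pool, and labelled with cyanine 3. Per the file headers, Feature Extraction 11.5.1.1 wrote the processed intensity that the authors deposited, background-subtracted and not scaled between arrays, and the array design used danRer7 (Zv9). The labels speak of a dye swap, but each file holds 1 channel. Control and outlier spots (0.0594 to 1.80% per array) were left out, spots of a probe averaged, and each array's 75th percentile of log2 intensity subtracted. Tested probes were well above background on all measured arrays of some group; tested genes, shown by their brightest probe, also had 2 values in every group. Of 43603 probes, 26094 were named through RefSeq accessions in a GRCz12tu table. limma 3.58.1 (R 4.3.3) fitted 4 group means over all 12 arrays, with Benjamini-Hochberg adjustment over 12558 genes at 0.05, and was tested on simulated data. P-values measure the spread between pools.

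Lists and genes were chosen with earlier results of these data known. The genes named were 12 rises and 12 falls with all 3 ZnO arrays beyond the other 9, ranked by the p against the mean of CuO and NiO and passing over clone names, up to 4 called members of a list, and stress and metal genes by name. None met the stricter rule of a call against that mean. Others are said to have been named after their values were seen. The deposited series table, an intensity per probe, was an alternative only: the values of 2 of its 12 columns matched their own sample's array, and 10 matched another's. Replicate numbers are also the slides, and the main fit has no block for them. Deviations of same-numbered control and ZnO arrays correlated at 0.0591 to 0.481, and those of differently numbered ones at -0.478 to 0.187. Those of all 18 same-numbered pairs ran from -0.58 to 0.48, and a fit with the block is given below. The files hold no mean spot intensity, so the deposited median intensities of spot and background served for the normexp alternative (offset 50).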

Additional observations from a re-analysis of the deposited data

Results flagged for a closer look

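Among the 13558 tested probes without a gene name, 80 were called higher than the controls with all 3 ZnO arrays above the other 9. The comparisons of named genes do not use these probes. Of the 12558 named genes, 131 (1.04%) met the same rule in their own fit. With or without a call, 127 of the unnamed probes (0.937%) had that order, against 1.54% of the named genes. The units are unlike, since each named gene is shown by its brightest probe only. Over all 37144 tested probes, limma called 1 against the mean of CuO and NiO, the unnamed A_15_P546382, which was lower by a difference of -4.88 (SE 0.383, adjusted p = 0.00420). Its levels were 0.35, 0.19 and -0.01 on the NiO arrays and from -9.58 to -7.70, not well above background, on the other 9, so the call belongs to NiO rather than to ZnO.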

How the results depend on the processing

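ZnO against the control called 3233 genes, and between 1540 and 2902 with 1 array left out. That number was 1761 (601 higher, 1160 lower) in the fit of ZnO and control arrays alone, 1964 (807 and 1157) without the 4 arrays low in eye markers, an alternative chosen after seeing the data, and 0 both with the oocyte covariate and with the deposited series table read by its column names. By scaling, 1737 higher and 1496 lower became 1195 and 1643 with the percentile over detected probes, 737 and 1556 with ribosomal centring and 1058 and 1558 with the mean of a gene's probes. The genes called and above all other arrays (131) became 77, 70 and 83 under these 3, and those below (42) became 15 with quantile normalization and 173 without the eye-low arrays; both were 0 with the oocyte covariate and with the table, and 65 to 300 and 33 to 203 with 1 array left out. The 19 interferon rises became 11 with ribosomal centring, 8 with ZnO and control arrays alone, 12 without the eye-low arrays and 0 with the oocyte covariate or the table, and 9 to 17 with 1 array left out. Calls numbered 0 to 31 against the mean of CuO and NiO, 0 to 34 against CuO, 0 to 1 against NiO and 0 to 28 by the strict rule with 1 array left out, and 0 under the other alternatives. With the replicate number, which is also the slide, as a block, 2931 genes were called against the control, 20 of the interferon list among them, and none against CuO or NiO, so the block moved neither these calls nor the number of rises in any list by over 1.5 times; it moved the 8 proteasome genes at an unadjusted p under 0.05 against the mean of CuO and NiO to 4, and the 2 falls of the unfolded protein response list to 1. The log2 difference of a called gene from the control changed sign for asns with the mean of probes (-0.55), for ca15b (0.34) and atp1a1a.5 (-0.19) with the oocyte covariate, and for 26 genes with the series table, most of whose columns hold another sample's array: ogfr1 (-0.49), ftr53 (-0.67), cpa5 (1.13), cpa1 (1.60), sox21a (0.23), tspan13a (0.68), cel.1 (1.47), cdc25d (0.27), mt2 (0.10), mtf1 (-0.16), mgst1.1 (-0.032), mgst1.2 (-0.025), gsr (-0.059), psmd2 (-0.016), psme4b (-0.055), psma6l (-0.000903), smad6a (-0.48), ptges (0.95), mpeg1.2 (-0.96), illr1 (-1.24), cd37 (-0.78), cyp1b1 (-1.0), ca15b (0.73), stc1 (-0.34), zmynd10 (0.62) and ccne1 (0.34). In the series table the columns named ZnO matched the arrays ZnO 2, NiO 2 and control 3. Those named control matched control 1, CuO 1 and ZnO 1. A fit of these columns by name therefore does not compare ZnO arrays with control arrays. The cause of the changes of sign with the mean of probes and with the oocyte covariate was not tested. Signal over background limits the low genes most: 9 of the named genes called were dim on some or all controls or ZnO arrays, and their differences are given as bounds.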
